A study of Mus musculus with 64 samples.

Results

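The replication-dependent histone genes were taken as every gene whose GENCODE M21 symbol begins with Hist1h, Hist2h, Hist3h or Hist4h, and the histone mRNA processing genes Lsm10, Lsm11 and Slbp were added to them, which gave 73 genes (70 histone genes, 3 of them pseudogenes) of 52636 in the count table. The RNA came from brown fat (BAT) and from the epididymal white fat pad (eWAT) of male mice, whose age the labels do not give, at Zeitgeber times (ZT, hours after lights on) 6, 10, 18 and 22, with 4 samples in each of the 16 groups. FANKO mice carried the floxed NamptTM1Jtree allele, in which loxP sites flank exon 3 of Nampt, together with an Adiponectin-Cre transgene. WT mice were their littermates without Cre, so both groups carried the floxed allele. Adiponectin-Cre is active in adipocytes, and the other cells of each depot keep Nampt, the enzyme that limits the salvage synthesis of NAD+. The sample labels number the replicates but do not say whether each came from its own animal or whether the same mice gave both depots, so p-values measure the spread between the deposited samples. The question the design puts to these genes is how their levels and their daily course differ between genotypes within each depot.

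Histones H2A, H2B, H3 and H4 form the nucleosome core, and H1 binds the linker DNA. A cell that copies its genome needs new histones in a short time, and the replication-dependent genes, which lie in clusters and have no introns in their classical form, supply them in S phase. Unlike other mRNAs, their transcripts end without a poly(A) tail. In place of the tail they carry a short stem-loop, which is bound by the stem-loop binding protein encoded by Slbp. The cut that makes this end is directed by the U7 small nuclear ribonucleoprotein, whose ring holds the proteins encoded by Lsm10 and Lsm11. Some of the same genes also make polyadenylated transcripts in cells that have left the cell cycle. Libraries made by depletion of ribosomal RNA, as here, hold both kinds of transcript.

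The annotated transcripts were searched on their own strand for the letters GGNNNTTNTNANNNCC with paired arms, the core of the stem-loop. The motif was found in 44 of the 67 protein-coding histone genes (65.7%) and in 61 of 21799 other protein-coding genes (0.28%). Only annotated bases were searched, so a stem-loop past an annotated end would be missed. Its letters followed the histone class. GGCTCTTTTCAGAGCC stood in 25 genes of the H1, H2A, H2B and H3 classes, whereas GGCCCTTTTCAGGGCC stood in 6 genes, all of them H4. The form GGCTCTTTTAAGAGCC stood in 6 genes and the other 5 forms in 1 or 2 genes each. The stem-loops of 8 members whose values are described below are shown from 5′ to 3′ on the transcript strand, with the 16 bases of the stem-loop in capitals, since they show the shared end and the pairs of bases in which H4 genes differ.
Hist1h1c: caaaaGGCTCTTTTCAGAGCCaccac
Hist1h2be: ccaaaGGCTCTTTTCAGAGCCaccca
Hist1h3b: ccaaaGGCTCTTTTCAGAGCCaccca
Hist2h3c2: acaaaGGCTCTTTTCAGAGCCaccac
Hist1h2bb: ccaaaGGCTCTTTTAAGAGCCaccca
Hist2h2ac: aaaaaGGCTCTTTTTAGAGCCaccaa
Hist1h4h: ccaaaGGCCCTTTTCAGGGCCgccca
Hist1h4i: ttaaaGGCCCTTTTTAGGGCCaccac
In GRCm38 these stem-loops lie at chr13:23739512-23739527 (plus strand) for Hist1h1c, chr13:23585531-23585546 (minus) for Hist1h2be, chr13:23752820-23752835 (plus) for Hist1h3b, chr3:96238485-96238500 (minus) for Hist2h3c2, chr13:23747203-23747218 (plus) for Hist1h2bb, chr3:96220418-96220433 (minus) for Hist2h2ac, chr13:23531458-23531473 (plus) for Hist1h4h and chr13:22040966-22040981 (minus) for Hist1h4i. The annotation ends close to the stem-loop in some genes and far beyond it in others. It ends 23 bases after the stem-loop in Hist1h2bb, 46 in Hist1h4h, 51 in Hist1h3b and 57 in Hist2h2ac. In Hist1h4i it goes on for 330 bases, in Hist2h3c2 for 377, in Hist1h1c for 840 and, in Hist1h2be, for 1861 bases of transcript. In Hist2h2be and Hist1h2bc these letters are not in the annotated transcript.

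Total counts per library ran from 6117343 to 30544847, and the histone genes together took between 2208 and 14366 counts of a library, so the low members rest on few reads. Values below are counts-per-million (CPM) scaled by the trimmed mean of M-values (TMM), given for 16 libraries of a depot and genotype as lowest, median and highest. Nampt was at 479 to 1454 CPM in WT BAT against 109 to 186 in FANKO BAT, and at 112 to 310 CPM in WT eWAT against 101 to 131 in FANKO eWAT, where the ranges overlapped. One library stood apart. The WT eWAT library ZT 18 replicate 2 held 262 CPM of epididymis and sperm markers, and the next highest held 60.8. In BAT, 8 libraries (5 WT and 3 FANKO) held over 100 CPM of skeletal muscle markers.

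Of the 73 genes, 54 had enough counts to be tested, 51 of them histone genes. These were 5 of 6 H1, 10 of 20 H2A, 14 of 19 H2B, 10 of 12 H3 and 12 of 13 H4 genes. The 14 H2B genes include the processed pseudogene Hist3h2bb-ps. The summed histone level in BAT was 327, 443 and 558 CPM for WT and 403, 542 and 672 CPM for FANKO mice, and in eWAT it was 290, 357 and 522 CPM for WT and 313, 461 and 621 CPM for FANKO mice. All 4 ranges overlapped. A few genes held most of these reads. The linker histone gene Hist1h1c alone took 29.9% of the histone counts in BAT and 28.4% in eWAT of WT mice, and 35.4% and 34.7% in the same depots of FANKO mice. Per kilobase of exon and averaged over all libraries, the level was highest for Hist1h1c (95.9 CPM per kb), followed by the H4 gene Hist1h4h (58.6), the H2B gene Hist1h2bc (49.0), and the H4 genes Hist1h4d (32.5) and Hist1h4c (29.3). Lower levels were those of Hist1h1e, another linker histone gene (15.9 CPM per kb), of the H4 gene Hist1h4f (12.2) and of Hist1h2bb (11.3). The most abundant H2A and H3 genes were lower, with 6.9 CPM per kb for Hist2h2ac and 6.7 for Hist1h3e.

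In BAT, the level over the day differed between genotypes for 49 of 51 histone genes, 40 of them higher and 9 lower in FANKO. Of all 20249 genes tested, 67% passed the same threshold (a Benjamini-Hochberg adjusted p below 0.01 in edgeR's quasi-likelihood test), 33.1% higher and 33.9% lower, so a difference in either direction was common among all genes. The histone genes had a median log2 fold change of 1.75, a 3.36-fold difference, against 9.7e-05 over all genes, and the range ran from -1.90 to 3.66. Scaled by library size alone, without TMM, which moved the median of all genes to 0.58, the split became 43 higher and 2 lower and the histone median stood 1.77 above that of all genes. By class, 13 of 14 H2B genes rose and 1 fell (median log2 fold change 2.07), 8 of 10 H3 genes rose and 1 fell (2.01), 8 of 10 H2A genes rose and 2 fell (1.95), and 4 of 5 H1 genes rose (1.22). The H4 class was divided, with 7 genes higher and 5 lower (0.89).

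The greatest fold change in BAT was that of a gene that was near 0 in WT BAT. Hist1h3b (chr13:23752267-23752886, plus strand), a gene for histone H3, was at 0, 0.222 and 0.565 CPM in WT BAT and at 1.13, 2.64 and 4.72 CPM in FANKO BAT. No FANKO library reached down to the highest WT library. The log2 fold change was 3.66 ± 0.28 (SE, adjusted p = 4.3e-18), the largest of the set. Of its 38-base stretches, the length of a read, 61.2% also occur in other annotated transcripts, so the split of reads between it and its near copies is uncertain. Hist1h4i (chr13:22040636-22041362, minus strand), a gene for H4, was at 0.413, 1.56 and 4.20 CPM in WT BAT and at 5.41, 7.54 and 13.0 CPM in FANKO BAT. Again the groups did not overlap, and the log2 fold change was 2.37 ± 0.16 (adjusted p = 7.3e-21). Hist1h4k, another gene for H4, went from 0.297, 0.836 and 1.31 CPM to 2.18, 3.74 and 6.47 CPM, a log2 fold change of 2.28 ± 0.16 (adjusted p = 3.9e-19). It shares 80.7% of its 38-base stretches with other transcripts, so its reads are as uncertain in origin.

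Members of the other classes followed the same pattern at different levels. Hist1h2bb, a gene for H2B, was at 0.933, 1.85 and 5.16 CPM in WT BAT and at 5.72, 8.17 and 16.7 in FANKO BAT (log2 fold change 2.06 ± 0.18, adjusted p = 2.4e-15), without overlap. For the H2A gene Hist1h2ak the values were 0, 0.399 and 0.887 CPM in WT and 0.660, 1.91 and 3.24 CPM in FANKO, and these ranges overlapped (2.10 ± 0.26, adjusted p = 1.4e-10). Of its 38-base stretches, 68.5% are shared with other transcripts. In all, 15 histone genes were higher in all 16 FANKO than in all 16 WT libraries of BAT, where 12.5% of all genes were, and Hist2h2be alone was lower in all of them, where 10% of all genes were. The 15 genes were Hist1h1a, Hist1h1b, Hist1h2ac, Hist1h2bb, Hist1h2bj, Hist1h2bk, Hist1h2bl, Hist1h2bm, Hist1h2bn, Hist1h3a, Hist1h3b, Hist1h3c, Hist1h3h, Hist1h4i and Hist1h4k, all in the Hist1 cluster of chromosome 13.

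The abundant genes of the set moved less. Hist1h1c (chr13:23738808-23740367, plus strand) was at 98.9, 138 and 161 CPM in WT BAT and at 134, 197 and 270 CPM in FANKO BAT, with a log2 fold change of 0.54 ± 0.08 (adjusted p = 2.5e-08). For Hist1h2bc (chr13:23684199-23692908, plus strand) the values were 31.3, 45.6 and 70.9 CPM in WT and 50.8, 67.0 and 116 CPM in FANKO (0.60 ± 0.09, adjusted p = 3.6e-08). Both pairs of ranges overlapped. Hist1h1e, at 15.9, 29.3 and 39.3 CPM in WT and 22.7, 29.1 and 42.0 CPM in FANKO, did not pass the test (0.06 ± 0.09, adjusted p = 0.57), and neither did Hist1h3f (0.41, adjusted p = 0.023), although both passed as higher under library size alone. Of the H3 genes with the most reads per length, Hist1h3i had a log2 fold change of 1.03 ± 0.21 (adjusted p = 1.5e-05), with 91.2% of its 38-base stretches shared with other transcripts.

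**Figure D1:**
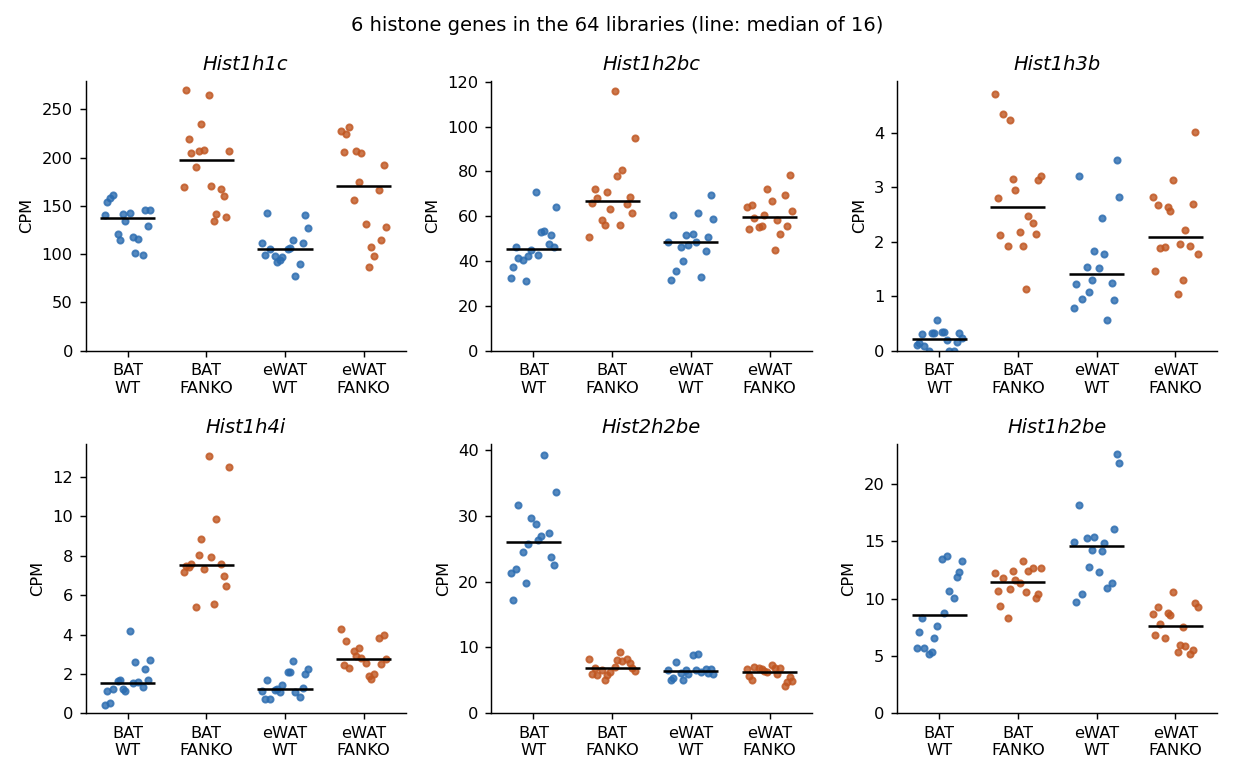
CPM of 6 histone genes in each of the 64 libraries, by depot and genotype (WT blue, FANKO orange), with the libraries of a column ordered by time point from left to right and a line at the median of 16. Hist1h3b and Hist1h4i do not overlap between genotypes in BAT, Hist2h2be is lower in all 16 FANKO BAT libraries, and Hist1h2be moves in opposite directions in BAT and eWAT.

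The 9 genes that were lower in FANKO BAT were Hist2h2be, Hist2h2ab, Hist2h2ac, Hist1h3e, Hist1h4c, Hist1h4d, Hist1h4h, Hist2h4 and Hist4h4. Scaled by library size alone, the calls of Hist2h2be (-1.32) and Hist1h4h (-0.41) were kept, that of Hist2h4 turned to higher (0.30), and the other 6 did not pass. The call of Hist2h4 was also lost without the libraries with skeletal muscle markers and without replicate 1 or 3 of each group. Hist2h2be (chr3:96221119-96223738, plus strand), a gene for H2B outside the main cluster, was at 17.2, 26.0 and 39.1 CPM in WT BAT and at 5.02, 6.91 and 9.33 CPM in FANKO BAT. Its log2 fold change was -1.90 ± 0.08 (adjusted p = 3.0e-30), the smallest p of the set, and only 1.2% of its 38-base stretches are shared. It took 5.96% of the histone counts in WT BAT and 1.29% in FANKO BAT. The H2A gene next to it, Hist2h2ac, was at 2.08, 4.77 and 6.11 CPM in WT and 1.08, 3.06 and 4.39 CPM in FANKO (-0.60 ± 0.13, adjusted p = 4.1e-05). Of the 38-base stretches of Hist2h2ac, 61.1% are shared with other transcripts.

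Among the H4 genes the 3 with the most reads per length in these tissues, Hist1h4h, Hist1h4d and Hist1h4c, all fell. Hist1h4h (chr13:23531050-23531519) was at 22.4, 44.3 and 74.0 CPM in WT BAT and 8.82, 22.4 and 34.4 CPM in FANKO BAT (log2 fold change -1.0 ± 0.13, adjusted p = 5.0e-10). Hist1h4d (chr13:23581598-23582735) was at 32.6, 43.8 and 58.7 CPM in WT and 18.6, 31.2 and 42.7 CPM in FANKO (-0.50 ± 0.08, adjusted p = 1.2e-07), and under library size alone its log2 fold change turned to 0.09 without passing. Hist1h4c had a log2 fold change of -0.77 (adjusted p = 2.9e-09). The median of the summed H4 level was 150 CPM in WT BAT and 114 CPM in FANKO BAT, while the medians of the other sums were 179 and 268 CPM for H1, 11.3 and 18.5 for H2A, 87.8 and 117 for H2B and 13.5 and 24.6 for H3. The ranges overlapped for every class, with 97.9 to 209 CPM in WT and 70.3 to 166 CPM in FANKO for H4. These sums carry no test and rest on the TMM scaling. Under library size alone, Hist1h4h was the only H4 gene that stayed lower past the threshold. The H3 gene Hist1h3e was at 4.15, 7.39 and 11.2 CPM in WT BAT and at 3.66, 5.75 and 9.24 CPM in FANKO BAT (-0.39 ± 0.12, adjusted p = 0.0020). Of the 38-base stretches of Hist1h3e, 80.7% are shared with other transcripts. Without the 8 BAT libraries with skeletal muscle markers its adjusted p was 0.060, and without replicate 1 or replicate 3 of each group it was 0.020 and 0.046.

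By genomic cluster, 36 of the 42 tested Hist1 genes were higher in FANKO BAT and 4 lower (median log2 fold change 2.06). Of the 5 tested Hist2 genes of chromosome 3, 1 was higher and 4 were lower (-0.60). All 3 tested Hist3 genes, which include the pseudogene Hist3h2bb-ps, were higher (1.62), and the single Hist4 gene was lower (-0.76). A split by the annotated end was chosen after the values were seen. It placed the median log2 fold change in BAT at 2.07 for 20 genes whose transcript ends within 200 bases after the stem-loop. The median was 0.54 for 17 genes whose transcript runs farther, and 2.37 for 14 genes without the motif in the annotated transcript. In eWAT the same medians were 0.64, 0.31 and 0.48. The 17 genes whose transcript runs farther past the stem-loop had the lowest of these medians in both depots. No test was made of a split chosen in this way. Some of the 14 genes have short annotations, such as Hist1h4k (312 bases) and Hist1h2bn (381), and others long ones, such as Hist2h2be (2620). A stem-loop past the annotated end was not searched for, so these 14 need not form a separate kind of end. The median in BAT was also lower for the 25 genes that share under 50% of their 38-base stretches with other transcripts (1.20) than for the 26 genes that share more (2.28), and the part of shared sequence in these values was not tested. In eWAT these medians were 0.44 and 0.55.

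**Figure D2:**
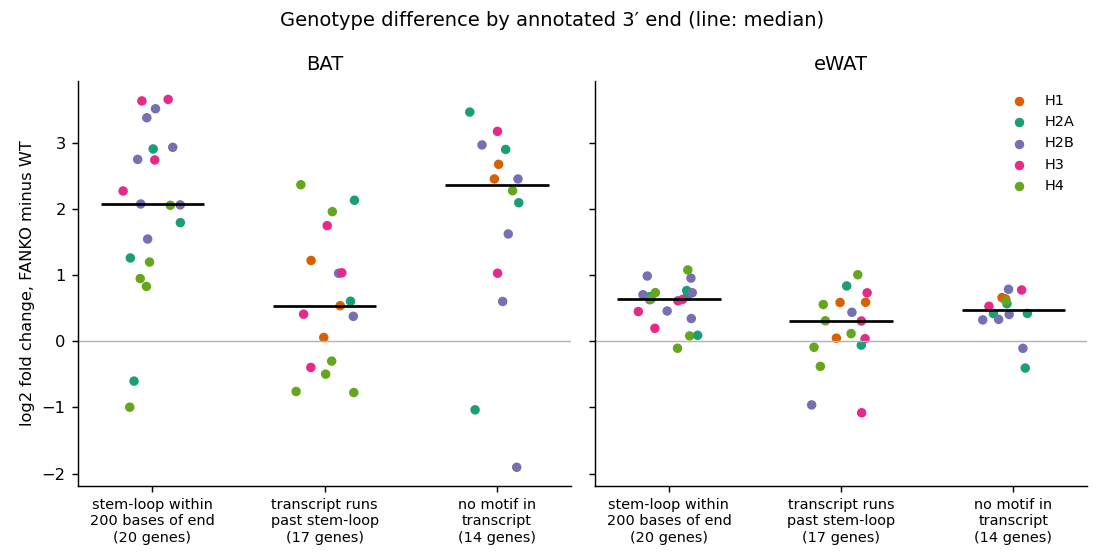
Log2 fold change of FANKO over WT for each tested histone gene in BAT and eWAT, with a line at each median. Genes are divided by whether the annotated transcript ends within 200 bases of the stem-loop, runs farther, or holds no motif. A stem-loop past the annotated end was not searched for. Medians in BAT are 2.07, 0.54 and 2.37, and those in eWAT are 0.64, 0.31 and 0.48.

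In eWAT, 26 of 51 histone genes differed between genotypes, 23 higher and 3 lower in FANKO, where 50.3% of all genes passed, 27.6% higher and 22.8% lower. The share that passed was close to that of all genes, and most of the histone calls were again upward. Their median log2 fold change was 0.53, a 1.44-fold difference, against -0.02 over all genes, and the range was from -1.08 to 1.08. Scaled by library size alone, which moved the median of all genes to -0.27, the split was 6 higher and 6 lower, and the histone median then stood 0.57 above that of all genes. No histone gene was free of overlap between the 16 WT and 16 FANKO libraries of eWAT in either direction, where 4.57% of all genes were higher and 1.33% lower in all FANKO libraries. By class, the genes that passed were 4 of 5 H1, 3 of 10 H2A, 7 of 14 H2B, 4 of 10 H3 and 8 of 12 H4 genes.

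Hist1h1c was at 77.0, 106 and 142 CPM in WT eWAT and at 87.1, 170 and 232 CPM in FANKO eWAT (log2 fold change 0.59 ± 0.08, adjusted p = 6.4e-09). Hist1h4i, with 0.711, 1.25 and 2.65 CPM in WT and 1.73, 2.77 and 4.27 CPM in FANKO, rose by 1.01 ± 0.15 on the log2 scale (adjusted p = 9.5e-08), and Hist1h4n, chosen after its values were seen, had the highest value of the histone genes, 1.08 (adjusted p = 7.6e-08). Of the 38-base stretches of Hist1h4n, 86.0% are shared with other transcripts. Hist1h4k rose by 0.61 ± 0.14 (adjusted p = 2.1e-04), Hist1h2bb by 0.63 ± 0.17 (9.6e-04), Hist1h3i by 0.78 ± 0.21 (0.0010), Hist1h2ac by 0.84 ± 0.18 (5.0e-05) and Hist1h2bc by 0.32 ± 0.09 (0.0017). Under library size alone the calls of Hist1h4k, Hist1h2bb, Hist1h3i and Hist1h2bc were lost. That of Hist1h3i was also lost without replicate 1, 3 or 4 of each group, that of Hist1h2bc without replicate 1 or 4 and that of Hist1h2bb without replicate 3. Other members that had moved far in BAT did not pass in eWAT. Hist1h3b was at 0.561, 1.41 and 3.51 CPM in WT and 1.05, 2.08 and 4.01 CPM in FANKO (0.45 ± 0.20, adjusted p = 0.049), and Hist2h2be was at 5.05, 6.38 and 8.99 CPM in WT and 4.20, 6.35 and 7.28 CPM in FANKO (-0.11 ± 0.08, adjusted p = 0.26). Hist1h1e (0.05, adjusted p = 0.66), Hist2h2ac (0.09, 0.55), Hist1h4h (-0.10, 0.49), Hist1h4c (0.12, 0.34), Hist1h2ak (0.57, 0.024), Hist1h3e (0.31, 0.021), Hist1h2bh (0.44, 0.038) and Hist3h2a (-0.06, 0.61) also missed the threshold. Hist2h2be (-0.35) and Hist3h2a (-0.30) passed as lower under library size alone.

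The 3 histone genes that fell in FANKO eWAT were Hist1h2be, Hist2h3c2 and Hist4h4, and all 3 were also lower under library size alone. Hist1h2be (chr13:23583670-23621124, minus strand), a gene for H2B, was at 9.74, 14.6 and 22.6 CPM in WT eWAT and at 5.16, 7.64 and 10.6 CPM in FANKO eWAT. The ranges overlapped only between 9.74 and 10.6 CPM, and the log2 fold change was -0.96 ± 0.10 (adjusted p = 7.2e-13). Its exons overlap those of Hist1h1e by 496 bases and those of Gm11398 by 320 bases on the same strand, so reads from these bases cannot be given to a single gene. Hist2h3c2 (chr3:96238108-96239127, minus strand), a gene for H3, was at 0.537, 1.99 and 4.55 CPM in WT eWAT and at 0.381, 0.811 and 1.98 CPM in FANKO eWAT (-1.08 ± 0.18, adjusted p = 1.1e-06). Hist4h4 had a log2 fold change of -0.38 (adjusted p = 0.0045), and its call was lost without replicate 2 of each group (adjusted p = 0.081).

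The genotype difference itself differed between depots for 37 of 51 histone genes, where 64.3% of all genes passed. It was greater in BAT for 30 genes and less for 7, against 32.2% and 32.1% of all genes, and the median of BAT minus eWAT over the histone genes was 1.3 on the log2 scale. Under library size alone, which moved the median of all genes from 0.04 to 0.88, the split was 42 greater and 1 less. The widest gaps in the upward direction were those of the H2A gene Hist1h2af, named after its values were seen (3.87, adjusted p = 3.5e-10), and of Hist1h3b (3.21, adjusted p = 5.2e-12), and the widest in the other was that of Hist2h2be (-1.80, adjusted p = 1.6e-21). The value of Hist1h2af rests on few reads, with 0 to 4 counts in each WT BAT library. Of its 38-base stretches 94.2% are shared with other transcripts, so the size of its gap is uncertain. Hist1h4k (1.67, adjusted p = 9.8e-10), Hist1h2bb (1.43, 8.7e-07) and Hist1h4i (1.36, 1.9e-07) rose in both depots but more in BAT. Hist1h1c did not pass (-0.05, adjusted p = 0.72), although it did under library size alone (0.78).

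Opposite signs, each past the threshold, were found for 3 histone genes. Hist1h2be rose in BAT, from 5.21, 8.55 and 13.7 CPM to 8.32, 11.5 and 13.3 CPM (log2 fold change 0.38 ± 0.10, adjusted p = 6.0e-04), and fell in eWAT, a difference between depots of 1.34 (adjusted p = 6.3e-13). Its BAT call was lost without the 8 libraries with skeletal muscle markers (0.33, adjusted p = 0.017). Hist2h3c2 rose in BAT, from 0.142, 0.586 and 1.38 CPM to 0.562, 1.24 and 1.94 CPM (1.04 ± 0.21, adjusted p = 1.6e-05), and fell in eWAT. Hist1h4d fell in BAT and rose in eWAT, from 29.1, 32.6 and 39.1 CPM to 28.3, 39.6 and 50.7 CPM (0.31 ± 0.08, adjusted p = 5.4e-04), a difference between depots of -0.81 (adjusted p = 3.8e-09). This result of Hist1h4d rested on the TMM scaling: under library size alone the values were 0.09 in BAT, 0.06 in eWAT and 0.03 for the difference, and none passed.

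**Figure D3:**
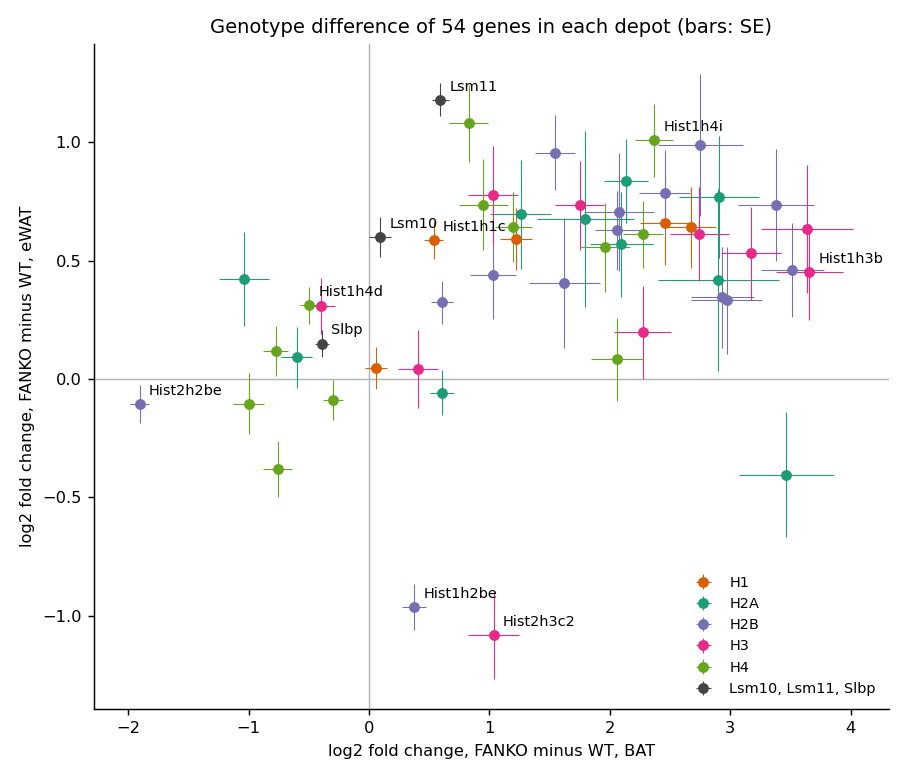
Log2 fold change of FANKO over WT in BAT (horizontal axis) and in eWAT (vertical axis) for the 54 tested genes, coloured by histone class, with bars for the SE. Most genes lie to the right of 0 and closer to 0 on the vertical axis, Hist2h2be lies far to the left at -1.90, and Hist1h2be and Hist2h3c2 lie right of 0 and below it.

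Between depots, more histone genes of WT mice were lower than higher in BAT, and those of FANKO mice mostly did not pass the test. In WT, 32 of 51 passed, 9 higher and 23 lower in BAT than in eWAT (median log2 difference -0.50, against -0.11 over all genes), where 73.7% of all genes passed, 32.7% higher and 41.1% lower, so the share that was lower was close to that of all genes. Under library size alone, which moved the median of all genes to -0.86, the split in WT was 1 higher and 42 lower. In FANKO, 14 of 51 passed, 12 higher and 2 lower in BAT (median 0.40, against -0.01), where 59.7% of all genes passed, 28.1% higher and 31.6% lower. The FANKO count depended on the fit: of all 54 members 15 passed, against 24 with DESeq2, 23 with RLE size factors, 25 with library size alone, 10 without replicate 2 and 21 without replicate 3 of each group. Hist1h3b, for example, was lower in BAT than in eWAT of WT mice by a log2 difference of -2.92 (adjusted p = 7.3e-14), whereas the difference in FANKO mice was 0.29 (adjusted p = 0.19). Hist2h2be was 2.00 higher in BAT of WT mice (adjusted p = 1.1e-31) and 0.20 in FANKO mice (adjusted p = 0.024, passing with DESeq2, RLE size factors, library size alone and without replicate 4). Hist1h4i showed the reverse order, with 0.14 in WT (adjusted p = 0.46, and -0.60 past the threshold under library size alone) and 1.5 in FANKO (adjusted p = 2.8e-14), and Hist1h2ac stood 1.21 higher in BAT of FANKO mice (adjusted p = 2.1e-09). Hist1h2be was lower in BAT of WT mice (-0.75, adjusted p = 6.3e-10) and higher in BAT of FANKO mice (0.59, adjusted p = 4.2e-07).

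The 3 processing genes did not share a direction. Lsm11 (chr11:45928269-45944935, minus strand), the U7-specific ring protein gene, was at 4.39, 9.59 and 26.9 CPM in WT BAT and 9.59, 16.8 and 26.2 CPM in FANKO BAT (log2 fold change 0.59 ± 0.07, adjusted p = 3.4e-11). In eWAT it was at 4.54, 6.65 and 9.36 CPM in WT and 6.80, 15.3 and 31.8 CPM in FANKO (1.18 ± 0.07, adjusted p = 7.0e-22), the smallest p of the set in that depot. The range within each group is wide because the gene changed with time of day, as described below. Lsm10 (chr4:126096623-126098584, plus strand), its partner in the ring, had medians of 8.35 CPM (WT) and 8.93 CPM (FANKO) in BAT and of 11 CPM (WT) and 18 CPM (FANKO) in eWAT. Its log2 fold change was 0.60 ± 0.08 in eWAT (adjusted p = 1.2e-08) and 0.09 in BAT (adjusted p = 0.35), where it passed under library size alone (0.69). In FANKO mice it was lower in BAT than in eWAT (-0.87, adjusted p = 1.3e-13).

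Slbp (chr5:33634952-33652574, minus strand), whose protein binds the stem-loop, was at 17.8, 23.5 and 31.5 CPM in WT BAT and at 13.8, 18.8 and 23.9 CPM in FANKO BAT. It fell by 0.39 ± 0.06 on the log2 scale (adjusted p = 2.3e-08), and this direction turned to 0.20 under library size alone. In eWAT Slbp was at 14.6, 16 and 18 CPM in WT and 16, 17.9 and 22.5 CPM in FANKO (0.15, adjusted p = 0.023, and -0.10 under library size alone). In WT mice it was 0.61 higher in BAT than in eWAT (adjusted p = 3.3e-14). All 3 genes had a lower genotype difference in BAT than in eWAT, by -0.59 for Lsm11, -0.54 for Slbp and -0.51 for Lsm10. Under library size alone all 3 differences turned sign without passing (0.24, 0.29 and 0.33), and that of Lsm10 was also lost without replicate 3 of each group (adjusted p = 0.029) and without the libraries with skeletal muscle markers (0.011).

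The course over the day was strong for Lsm11 and weak for most histone genes. With a cosine of 24 h fitted to each depot and genotype, Lsm11 passed in all 4, with an adjusted p of 3.5e-20 (WT) and 1.2e-08 (FANKO) for BAT and of 6.6e-04 (WT) and 7.1e-19 (FANKO) for eWAT. In WT BAT it was at 5.53 ± 0.88 CPM at ZT 6 and 5.77 ± 0.44 at ZT 10 (SD, n = 4), against 22.2 ± 3.9 at ZT 18 and 17.5 ± 3.5 at ZT 22. Day and night values were thus far apart. In FANKO BAT the low values were higher and, by TMM scaling, the high values close to those of WT. The FANKO BAT means were 11.6 ± 0.74, 12.1 ± 2.8, 22.7 ± 2.7 and 20.6 ± 1.9 CPM at the same time points. The reverse held in eWAT, where WT had the flatter course (5.89 ± 0.75, 5.10 ± 0.41, 7.97 ± 0.94 and 7.56 ± 0.92 CPM) and FANKO the steeper one (8.95 ± 0.57, 7.96 ± 0.92, 24.7 ± 4.9 and 27.2 ± 2.3 CPM).

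The amplitude of Lsm11, taken as the highest minus the lowest of the 4 time-point means of log2 CPM with its SE, was 1.98 ± 0.17 (WT) and 0.95 ± 0.09 (FANKO) for BAT, and 0.63 ± 0.10 (WT) and 1.76 ± 0.10 (FANKO) for eWAT. Its course differed between genotypes in BAT (adjusted p = 1.8e-05) and in eWAT (adjusted p = 1.2e-06). Its call in WT eWAT was lost under library size alone (adjusted p = 0.034) and without replicate 1 or replicate 2 of each group (0.012 and 0.021), and the calls of the other 3 were kept there.

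Of the 51 histone genes, 4 passed for a daily course in WT BAT, where 13.9% of all genes did. They were Hist1h2be (adjusted p = 1.7e-05), Hist1h4i (8.1e-04), and, chosen after their values were seen, Hist1h4f (0.0027) and Hist1h3d (0.0068). Hist1h2be was lower by day, with 6.70 ± 1.3 CPM at ZT 6 and 6.19 ± 1.1 at ZT 10, and higher by night, with 11.7 ± 2.4 at ZT 18 and 11.9 ± 1.3 at ZT 22 (SD, n = 4). In FANKO BAT its means were 11.1, 10.8, 11.9 and 11.4 CPM, close to the night means of WT at all 4 time points. This closeness rests on the TMM scaling, with median factors of 0.74 (WT) and 1.08 (FANKO) in BAT. The difference in course missed the threshold (adjusted p = 0.025). Hist1h4i went from 0.83 CPM at ZT 6 to 2.48 at ZT 18, and Hist1h3d from 0.537 to 1.38. Hist1h4f ran the other way, from 4.74 ± 0.58 CPM at ZT 6 through 3.68 ± 0.80 and 2.22 ± 0.21 to 1.86 ± 0.61 at ZT 22. Without the 8 BAT libraries with skeletal muscle markers the calls of Hist1h3d, Hist1h4f and Hist1h4i were lost and that of Hist1h2be was kept. Leaving out replicate 1 of each group lost the same 3 calls, replicate 2 lost Hist1h3d and Hist1h4f, replicate 3 lost all 3 and replicate 4 lost Hist1h3d.

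In FANKO BAT no histone gene passed, where 2.84% of all genes did, although 10 had an unadjusted p under 0.05 in edgeR, and the lowest adjusted p was that of Hist3h2a (0.015), whose exons overlap those of Trim17 on the same strand by 708 bases. DESeq2 and limma-voom each called 2 of the 54 genes there, against 1 (Lsm11) in edgeR. The difference in course between genotypes in BAT was called in edgeR for no histone gene, with 9 at an unadjusted p under 0.05 and 2.76% of all genes passing, and Hist1h2be and Hist1h2bh (adjusted p = 0.028) came nearest. In WT eWAT 1 histone gene passed, Hist2h3c2 (adjusted p = 0.0071), where 9.38% of all genes did. Its means were 1.42, 1.36, 2.11 and 3.18 CPM from ZT 6 to ZT 22, and it was lost without replicate 1, 2 or 3 of each group and under library size alone.

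In FANKO eWAT the linker histone genes Hist1h1c (adjusted p = 5.5e-06) and Hist1h1e (7.2e-04) passed, where 6.77% of all genes did. Over the 4 time points from ZT 6 to ZT 22, Hist1h1c was at 222 ± 12, 186 ± 25, 106 ± 19 and 151 ± 35 CPM (SD, n = 4), an amplitude of 1.08 ± 0.13 (SE) from ZT 6 to ZT 18. In WT eWAT it was at 115 ± 19, 95.3 ± 3.1, 101 ± 16 and 117 ± 22 CPM, so that the genotypes were far apart at ZT 6 and ZT 10 and overlapped at ZT 18. Hist1h1e followed the same order in FANKO eWAT, with 42.5 ± 3.9, 32.8 ± 2.9, 22.4 ± 2.5 and 32.7 ± 10 CPM, and its call was lost without replicate 2 of each group (adjusted p = 0.015). Hist1h1c was the single histone gene whose course differed between genotypes in eWAT (adjusted p = 0.0084), where 1.15% of all genes did. This call was lost without replicate 2, 3 or 4 of each group (adjusted p = 0.25, 0.048 and 0.070), without the WT eWAT library that stood apart (0.012), with time point as a factor (0.024) and under library size alone (0.056).

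**Figure D4:**
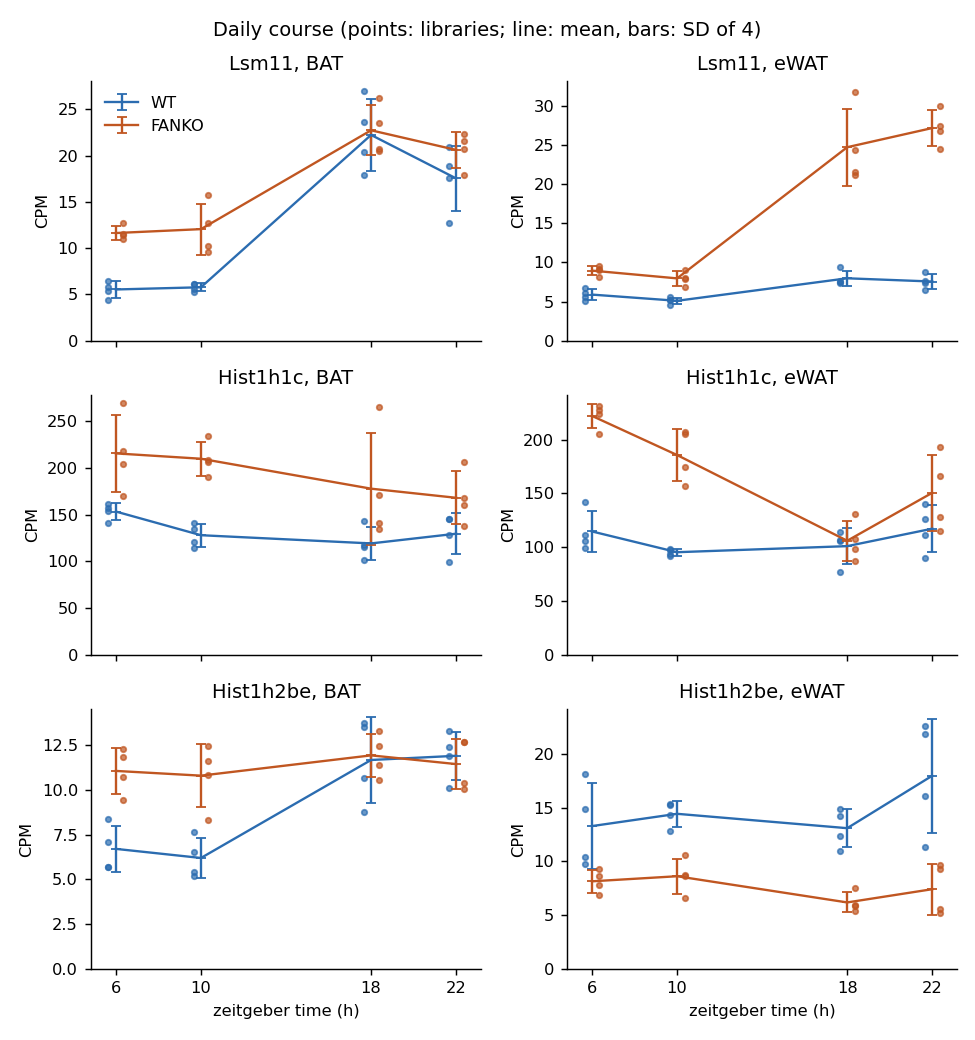
CPM of Lsm11, Hist1h1c and Hist1h2be at ZT 6, 10, 18 and 22 (hours) in each depot, WT blue and FANKO orange, with a point for each library, a line through the means and bars for the SD of 4. Lsm11 is steep in WT BAT and FANKO eWAT, Hist1h1c falls from 222 to 106 CPM between ZT 6 and ZT 18 in FANKO eWAT, and Hist1h2be rises at night in WT BAT.

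Over the histone genes as a group, the time point with the highest mean was not shared. In WT BAT it was ZT 6 for 18 genes, ZT 10 for 3, ZT 18 for 19 and ZT 22 for 11. In FANKO BAT it was ZT 6 for 30 of 51 genes, against 28.2% of all genes tested, and in WT eWAT it was ZT 22 for 33 of 51, against 27.8% of all genes. In FANKO eWAT the counts were 15, 10, 4 and 22. The ZT 22 count of WT eWAT rests on 4 uneven libraries, whose summed histone level ran from 309 to 522 CPM. Replicate 3 was highest of the 4 for Hist1h1a (6.36 against 1.66 to 4.00 CPM) and Hist1h1b (8.22 against 2.02 to 5.44 CPM). For Hist1h2ac, replicate 4 was highest (1.63 CPM). The part of single libraries in these counts was not tested. The median amplitude of the histone genes, again the highest minus the lowest time-point mean of log2 CPM, was 0.73 for WT and 0.52 for FANKO mice in BAT, where all tested genes had 0.43 and 0.33, and 0.45 for WT and 0.61 for FANKO mice in eWAT, where all tested genes had 0.37 and 0.35. Low counts widen such amplitudes, and these medians carry no test. The summed histone level of FANKO eWAT was 564 ± 57, 503 ± 58, 364 ± 37 and 483 ± 95 CPM (SD, n = 4) from ZT 6 to ZT 22, lowest at the same time point as Hist1h1c.

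Other genes of chromatin replication were read from lists chosen with earlier results of these data known. Of 24 genes of S phase and proliferation, 18 rose and 2 fell in FANKO BAT (median log2 fold change 1.70), with Mki67, a marker of cycling cells, at 3.66, Top2a, the topoisomerase of dividing cells, at 3.98 and Cdk1, the mitotic kinase, at 3.23, while Gmnn, the inhibitor of origin licensing, fell (-1.41). In eWAT 11 rose and 2 fell (0.35). Of 8 histone chaperone genes 5 rose and none fell in BAT, among them the chromatin assembly factor genes Chaf1b (2.37) and Chaf1a (1.77), and 3 rose in eWAT. Of 18 genes of histone mRNA transcription and processing, 3 rose and 10 fell in BAT, and 9 rose and none fell in eWAT. These directions turned under library size alone, with 14 up and none down in BAT and 2 up and 5 down in eWAT. Those that rose in BAT were the exonuclease gene Eri1 (0.94), the scaffold gene Sympk (0.56) and Casp8ap2 (0.18), which encodes a protein that histone transcription needs. Of 11 replacement histone genes, which are made outside S phase, 4 rose and 5 fell in BAT, with H3f3b at 1.12, H2afx at 1.05 and the linker histone gene H1f0 at -1.19, and 3 rose and 2 fell in eWAT (6 up and 2 down, and 1 up and 6 down, under library size alone). For the S phase and chaperone lists library size alone gave 23 up and 1 down and 8 up and none down in BAT, and 4 up and 2 down and 2 up and 2 down in eWAT. Median log2 fold changes over all genes stood at 9.7e-05 in BAT and -0.02 in eWAT. By TMM, 67% of all genes passed in BAT (33.1% up and 33.9% down) and 50.3% in eWAT (27.6% up and 22.8% down). The numbers that passed were near these shares for the transcription and processing list (13 of 18 in BAT and 9 of 18 in eWAT) and for the replacement histones in eWAT (5 of 11). The same shares stand beside the marker lists below.

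Markers of other cell types moved with genotype in BAT as well. In bulk tissue, fewer cells of a type and less RNA per cell cannot be told apart. Of 8 macrophage markers 7 rose and 1 fell in FANKO BAT, and their sum went from 94.2 to 176 CPM in WT to 493 to 1201 CPM in FANKO. All 8 lymphocyte markers rose, from sums of 1.49 to 5.42 CPM to 29.8 to 112 CPM. Of 8 adipocyte markers 7 fell, from sums of 14866 to 20740 CPM to 5679 to 10084 CPM, and 5 of 6 tested red blood cell markers fell. No skeletal muscle marker of 8 and no epididymis or sperm marker of 7 passed in BAT. In eWAT the macrophage markers went 3 up and 1 down, with sums of 554 to 852 CPM in WT and 535 to 921 in FANKO, the lymphocyte markers 2 up and 4 down and the adipocyte markers 2 up and 3 down. Under library size alone these 3 eWAT lists went 2 up and 4 down each. By TMM in eWAT, 1 red blood cell marker fell, 1 skeletal muscle marker rose and 4 epididymis and sperm markers fell. Of the 8 epididymis and sperm markers, 4 were at 0 in all WT BAT libraries and 1 in all FANKO BAT libraries, and no marker of the other lists was at 0 throughout a group. The part of other cells in the histone values was not tested.

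The 19 genes that were not tested comprised 6 without a count in any library (Hist1h2ao, Hist2h2aa1, Hist2h2aa2, Hist2h2bb, Hist2h3b and Hist2h3c1), which share between 93.7% and 100% of their 38-base stretches with other transcripts, and 13 with few counts. The testis genes Hist1h1t and Hist1h2ba, with 225 and 118 counts over all 64 libraries, belong to the 13, together with Hist1h2aa (16 counts), Hist1h2ag (194), Hist1h2ah (77), Hist1h2an (135), Hist1h2bp (206), Hist1h2bq (9), Hist1h2br (2), Hist1h2ap (1), Hist1h4m (32) and the pseudogenes Hist1h2aj (2) and Hist1h2al (21). Of the 225 counts of Hist1h1t, 78 came from the WT eWAT library ZT 18 replicate 2.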

How the data were processed

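The authors prepared stranded, ribosome-depleted total RNA libraries, sequenced 38-base paired ends, aligned them with STAR (version 2.5.3a) to GRCm38.p5 with GENCODE version 15, and deposited whole-number counts per gene from featureCounts (1.5.3), 1 column per sample, without normalization. The strand, multi-mapping and overlap options of the counting are not given in the sources used here, and they set how reads of near-identical histone genes were assigned. Symbols, coordinates and transcript sequences came from GENCODE M21 (GRCm38), and 233 of 52636 gene identifiers had no symbol. Members and lists were chosen with earlier results of these data known.

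Counts of 64 samples were scaled by TMM, filtered with filterByExpr (minimum count 10, minimum total 15), which kept 20249 genes, and fitted with edgeR 4.0.16 (R 4.3.3, quasi-likelihood) with terms for the mean and for a 24-h cosine and sine in each depot and genotype. Genotype and depot differences were contrasts of the means. A daily course was the joint test of cosine and sine. P-values were adjusted by Benjamini-Hochberg over all 20249 genes, with the threshold of 0.01. CPM in the text are TMM-scaled, and log2 CPM used a prior count of 2. Shared sequence was the share of a gene's 38-base stretches found in transcripts of other genes. The text names the processing genes, the 2 members of each class with the most reads per length, the 3 members with the smallest p in each test and the largest and smallest fold change of each genotype test. Fits with DESeq2 1.42.0, limma-voom (3.58.1), other scalings and filters, a replicate block, each replicate left out, and the doubted libraries left out were compared. Scripts were tested on simulated counts. Figures were drawn with matplotlib 3.10.9. No per-sample count column was left out. No 2 samples of a group held identical values.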

Additional observations from a re-analysis of the deposited data

Results flagged for a closer look

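Within single groups of 4 libraries, 8 of 176 series of values had 1 library far from the other 3 (gap over range above Dixon's critical value), which chance alone gives in about 1 in 20. Lsm10 was at 11.9 CPM in FANKO BAT ZT 6 replicate 3, against 8.07 to 8.69 in the others. Lsm11 was at 9.36 CPM in WT eWAT ZT 18 replicate 2, the library with epididymis and sperm markers, against 7.43 to 7.65. Slbp was at 18.8 CPM in FANKO BAT ZT 22 replicate 2, against 17.1 to 17.1, and at 17.0 CPM in WT eWAT ZT 10 replicate 2, against 15 to 15.2. Hist1h1e was at 39.7 CPM in WT eWAT ZT 6 replicate 3, against 31.0 to 32.3, and Hist1h3d at 0 CPM in WT BAT ZT 6 replicate 2, against 0.671 to 0.780. Hist2h3c2 was at 1.76 CPM in FANKO BAT ZT 6 replicate 1, against 0.949 to 1.07. The summed histone level was 672 CPM in FANKO BAT ZT 22 replicate 4, against 437 to 475.

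The genotype difference differed between depots, by a test of the difference itself, for 40 of the 54 members, where 64.3% of all genes passed. The 5 described above are Hist1h2be (1.34 on the log2 scale), Hist2h2be (-1.80), Hist1h3b (3.21), Hist2h3c2 (2.12) and Hist1h4d (-0.81). The daily course differed between genotypes for Lsm11 in BAT (adjusted p = 1.82e-05) and eWAT (1.21e-06) and for Hist1h1c in eWAT (0.00842).

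Among genes too low to be tested, the testis histone genes Hist1h1t and Hist1h2ba reached 3.53 and 3.62 CPM in WT eWAT ZT 18 replicate 2, and no other library exceeded 0.699 CPM of either. This is the library with the most epididymis and sperm markers, and the part of those cells in its other values was not tested.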

How the results depend on the processing

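Of 142 alternatives chosen with the design for the counts of called members and their amplitudes, 117 kept the value and 25 did not. Of 22 chosen after seeing the data, 19 kept it. These left out WT eWAT ZT 18 replicate 2 or the 8 BAT libraries with skeletal muscle markers. A count was kept if within 1.5 times, and an amplitude if it moved by less than its median SE. The genes behind a kept count could change. Under library size alone the depot difference went from 40 to 43 members with 31 shared, and depots in WT from 35 to 44 with 27 shared. Counts are of 54 members. The eWAT genotype count fell from 28 to 14 with scaling by library size alone. That of depots in FANKO went from 15 to 24 with DESeq2, 23 with RLE size factors, 25 with library size alone and 32 at a threshold of 0.05. The daily course count in WT BAT went from 5 to 3 with limma-voom, 10 at 0.05 and 2 without the muscle-marked libraries. In FANKO BAT it went from 1 to 2 with DESeq2, limma-voom, the replicate block or 0.05, and in WT eWAT from 2 to 0 with library size alone. The difference in course went from 1 to 3 in BAT at 0.05, and from 2 to 1 in eWAT with library size alone, no filter, time point as a factor or either set of doubted libraries left out. The cause of these shifts was not tested. Leaving out a replicate number from every group gave 49 to 51 calls for genotype in BAT, 19 to 25 in eWAT, 35 to 41 for the depot difference, 31 to 35 and 10 to 21 for depots in WT and FANKO, 2 to 4, 1 to 1, 0 to 2 and 2 to 3 for the daily course in WT BAT, FANKO BAT, WT eWAT and FANKO eWAT, and 1 to 1 and 1 to 2 for its difference in BAT and eWAT.

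For the members named by the rule given above, 440 fold changes were compared under the alternatives chosen with the design. Of these, 412 kept direction and side of the threshold, 14 lost the call, 4 gained it and 10 turned sign. None of the 10 passed in the new direction. Those that turned sign under library size alone were, in BAT, Slbp (0.20), Hist1h3e (0.21) and Hist1h4d (0.095), and in eWAT, Slbp (-0.10), Hist1h1e (-0.20) and Hist2h2ac (-0.16). Hist2h4 lies outside that rule, and in BAT it turned from lower to higher past the threshold under library size alone. Hist1h1e in eWAT was also at -0.011 with DESeq2, -0.010 with RLE size factors and between -0.038 and 0.096 with a replicate left out, and Hist2h2ac between -0.024 and 0.18 with a replicate left out (lowest without replicate 3 and highest without replicate 2 for both). In WT, library size alone moved the median depot difference of all genes to -0.86.

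Samples with the same replicate number were compared by their deviations from the group mean. The correlation of their deviations ran from -0.131 to 0.225 between genotypes (over 0.1 in 6 of 32 pairs) and from -0.133 to 0.306 between depots (10 of 32). Samples with different numbers were not compared in this way, so these values cannot show whether the numbers mark pairs. With the replicate block, the depot difference went from 40 to 41 members, depots in FANKO from 15 to 16 and the daily course in FANKO BAT from 1 to 2, and the other counts were unchanged. Depth limits the low members: Hist1h3b, for example, was at 0 in some WT BAT libraries, and small differences at such levels were not detectable.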
